A study of Homo sapiens and Mus musculus with 12 samples.

Results

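The ribosome biogenesis genes described here are 42 genes that act in the nucleolus, either in transcription of the ribosomal RNA genes by RNA polymerase I or in processing of that RNA and assembly of the ribosomal subunits. They were taken from a list of human gene symbols and the mouse genes of the same symbols, and all 42 were matched to identifiers in each species, among 63677 human and 47729 mouse identifiers. The study asked how ponatinib, a kinase inhibitor with many targets, changes transcription in triple-negative breast cancer (TNBC) cells. MDA-MB-231, a human TNBC line, and 4T1, a mouse mammary carcinoma line, both labelled as wild-type epithelial cells of the breast, were treated for 24 h with 1 µM ponatinib or with its solvent, dimethyl sulfoxide (DMSO). Each of the 4 groups had 3 libraries, 12 in all, and the groups of a line shared everything in the labels but the treatment. A single dose and a single time were measured in established lines grown in culture, and nothing states that replicates were separate cultures, so p-values measure the spread between these libraries, which may be technical.

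Ribosomes are built in the nucleolus. RNA polymerase I copies the ribosomal RNA genes into a long precursor, small nucleolar ribonucleoproteins (snoRNPs) modify it and guide its cleavage, and many assembly factors fold it with ribosomal proteins into precursors of the small and the large subunit, which mature on their way to the cytoplasm. The transcription factor MYC, which binds DNA as a dimer with MAX at the sequence CACGTG, called the E-box, is known to activate many of these genes in proliferating cells.

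Because the genes are known as MYC targets, their promoters were searched for this E-box. Promoter windows reached from 250 bases before to 50 bases after the transcription start in the human RefSeq table for GRCh38.p14, and 37 of the 42 genes had a window, the exceptions being NOP58, RRP12, BOP1, RRS1 and NOLC1. The motif reads the same on both strands and was searched without other motifs. A gene with several starts was counted once, as holding the motif if any of its windows did. It was present for 16 of the 37 genes (43.2%, 95% Wilson interval 28.7 to 59.1%), namely FBL, NOP10, GAR1, UTP4, WDR43, UTP20, NOP14, RRP9, IMP4, BYSL, LTV1, PES1, NOP2, GNL3, MRTO4 and DDX21. The share counted in this way was 12.3% among 10687 genes with a window that were tested in MDA-MB-231. Counted by window, it was 16 of 47 (34%, 95% Wilson interval 22.2 to 48.3%) against 7.26% of all 35116 windows of the table. The intervals cover counting error only. Of the 18 E-boxes in these 16 genes, 16 began within 50 bases of the start (88.9%), against 36.9% of the 2821 E-boxes in all windows.

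The first 8 stretches below, of 84 bases from 60 before to 24 after the start in the direction of transcription, are shown because an E-box lies wholly inside them at different distances, and WDR43, MRTO4 and DDX21 among them had the largest falls of their role groups in MDA-MB-231. The last 3 are shown because no CACGTG was found in their human windows. NOP56 and DKC1 fell in both lines, while UBTF fell in 4T1 and did not pass the test in MDA-MB-231. Capitals mark the E-box. Coordinates are those of GRCh38.p14.
WDR43 (chr2:28894607-28894690, + strand): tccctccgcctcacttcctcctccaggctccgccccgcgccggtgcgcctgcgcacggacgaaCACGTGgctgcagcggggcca
MRTO4 (chr1:19251745-19251828, + strand): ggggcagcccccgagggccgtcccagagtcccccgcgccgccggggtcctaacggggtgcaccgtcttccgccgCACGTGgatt
DDX21 (chr10:68956587-68956670, + strand): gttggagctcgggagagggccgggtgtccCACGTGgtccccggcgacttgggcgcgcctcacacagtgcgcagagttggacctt
UTP4 (chr16:69132589-69132672, + strand): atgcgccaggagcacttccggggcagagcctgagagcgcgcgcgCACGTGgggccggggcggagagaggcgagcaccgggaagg
UTP20 (chr12:101280045-101280128, + strand): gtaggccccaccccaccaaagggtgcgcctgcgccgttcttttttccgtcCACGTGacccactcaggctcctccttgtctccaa
RRP9 (chr3:51941881-51941964, - strand): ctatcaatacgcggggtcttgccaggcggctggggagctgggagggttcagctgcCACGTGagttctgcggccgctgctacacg
NOP10 (chr15:34343113-34343196, - strand): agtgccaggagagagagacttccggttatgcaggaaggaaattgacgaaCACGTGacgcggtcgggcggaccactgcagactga
PES1 (chr22:30591887-30591970, - strand): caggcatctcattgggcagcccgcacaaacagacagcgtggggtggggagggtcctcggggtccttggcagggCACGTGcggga
NOP56 (chr20:2652572-2652655, + strand): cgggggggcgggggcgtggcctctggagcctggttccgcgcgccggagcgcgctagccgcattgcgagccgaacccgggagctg
DKC1 (chrX:154762804-154762887, + strand): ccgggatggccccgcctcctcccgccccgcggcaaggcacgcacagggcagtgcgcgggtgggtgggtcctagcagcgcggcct
UBTF (chr17:44220859-44220942, - strand): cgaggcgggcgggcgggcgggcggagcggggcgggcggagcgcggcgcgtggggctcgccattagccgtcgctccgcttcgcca
Counted from 1 at the start, the E-box began at base 4 in WDR43, at base 15 in MRTO4, 31 bases before the start in DDX21 and 5 bases before it in RRP9. These letters describe the windows, and binding of MYC was not measured. In MDA-MB-231 the median log2 fold change was -0.82 for the 16 genes with an E-box and -0.59 for the 21 without it. Their ranges overlapped, from -1.49 to -0.31 and from -1.45 to 0.07. Neither median held NOP58, RRP12, RRS1 and NOLC1, which had no window, at -1.04, -1.05, -1.33 and -1.2. Whether these genes hold an E-box was not examined, so no difference is read from the medians. In 4T1 the medians were closer, at -0.42 and -0.39 for the mouse genes of the same symbols, grouped by the human windows. Mouse promoters were not searched, so the 4T1 medians say nothing of E-boxes in the mouse genes.

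Total counts per library ranged from 15012884 to 17301760 for MDA-MB-231 and from 17800675 to 18951493 for 4T1. All libraries were kept. In each of the 4 groups replicate 1 stood apart, with a chi-square per gene of 8.91 to 16.5 between its counts and those of replicates 2 and 3, against 2.93 to 6.92 between the latter. Levels are given as CPM, the counts of a gene relative to the scaled total of its library. As a check of the labels, MDA-MB-231 libraries carried KRT8, a keratin of simple epithelia (mean 890 CPM with DMSO), but CDH1, the epithelial cadherin, had at most 1 count in any of them and KRT5 had 0. In 4T1, Cdh1 was at a mean of 830 CPM and Krt8 at 2390 CPM with DMSO. The epithelial markers looked up were 6, EPCAM, CDH1, KRT8, KRT18, KRT5 and KRT14. In MDA-MB-231, 4 of them had enough counts to be tested, and 2 were higher and 0 lower after ponatinib. For 4T1, 5 were tested, with 1 higher and 1 lower. The 5 leukocyte markers summed to 0.566 to 0.907 CPM under DMSO and, without overlap, to 1.53 to 2.23 CPM under ponatinib in MDA-MB-231, where CSF1R, the 1 of them tested, was higher (log2 fold change 1.28, at most 35 counts in a library), and to at most 0.278 CPM in any 4T1 library, with PTPRC and TYROBP at 0 counts in all MDA-MB-231 libraries and Cd3e and Tyrobp at 0 in all 4T1 libraries. The summed level of the 3 fibroblast markers was 25.7 to 31.2 CPM across DMSO libraries of MDA-MB-231 and 73.1 to 77.0 CPM across its ponatinib libraries, where COL1A1 had means of 27.8 and 74.9 CPM. In 4T1 these sums ran from 5.95 to 6.89 CPM under DMSO and from 9.56 to 10.2 CPM under ponatinib, with Col1a1 higher and Pdgfra lower. The 3 endothelial markers summed to 2.84 to 5.42 CPM over all MDA-MB-231 libraries, and for 4T1 to 2.89 to 5.03 CPM under DMSO against 0.867 to 1.45 CPM under ponatinib. Transcripts of the mitochondrial genome took 5.17 to 5.31% of counts with DMSO and 6.38 to 6.56% with ponatinib in MDA-MB-231, while their ranges overlapped in 4T1 (0.732 to 1.15% and 0.936 to 1.32%). The part of these markers and transcripts in the results was not tested.

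After ponatinib, RNA of most ribosome biogenesis genes was lower in both lines. Together they held 0.684 to 0.707% of all counts in the MDA-MB-231 DMSO libraries and 0.447 to 0.463% in the ponatinib libraries. In 4T1 they held 0.816 to 0.892% with DMSO and 0.626 to 0.672% with ponatinib. The ranges did not overlap in either line. In bulk libraries, fewer cells of a type and less RNA per cell cannot be told apart.

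Each gene was tested with edgeR's quasi-likelihood test across all expressed genes, at a Benjamini-Hochberg adjusted p under 0.05. In MDA-MB-231, 41 of the 42 genes passed the filter on low counts, 36 were lower after ponatinib and 0 were higher. Over all 14610 genes tested, 26.8% were lower and 27.2% were higher. At an unadjusted p under 0.05, 38 of the 41 were lower and 0 were higher, and DESeq2 found 35 lower and 0 higher. For 29 genes the fall was at least 1.5-fold, against 14.1% of all genes tested, and for 35 every ponatinib library lay below every DMSO library, against 29.8% of all genes. Their median log2 fold change was -0.82, a 1.76-fold fall, with a range from -1.49 to 0.07, and the median of all genes was 0.02. RRN3, UBTF, NHP2, HEATR1 and NOB1 did not pass the test. BOP1 had 0 counts in all 6 MDA-MB-231 libraries under the identifier matched to its symbol, and was not tested there. With no filter on low counts 38 were lower, RRN3 and HEATR1 being added (adjusted p = 0.0399 and 0.0123). With replicates 2 and 3 of each group alone, 38 were lower, with RRN3, NHP2 and HEATR1 added and PPAN lost, and 1, UBTF, was higher.

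In 4T1, all 42 genes passed the filter, 36 were lower and 1, Polr1c, was higher. Over all 13286 genes tested, 29.4% were lower and 29.5% were higher. A fall of at least 1.5-fold was found for 12 genes, against 12.8% of all genes, and 34 had no overlap between the groups with ponatinib lower, against 30.8% of all genes. Their median log2 fold change was -0.39, a 1.31-fold fall, with a range from -1.05 to 0.23 around a median of all genes of -0.00014. Bysl, Rrp9, Bop1, Rrp1 and Wdr74 did not pass the test. With replicates 2 and 3 alone, 34 were lower and 3 higher, the calls for Nob1 and Ppan being lost and Bop1 and Rrp1 added as higher. Across the lines, 31 genes were lower in both, 4 were lower in MDA-MB-231 and not called in 4T1 (RRP9, BYSL, RRP1 and WDR74), and 5 were lower in 4T1 and not called in MDA-MB-231 (RRN3, UBTF, NHP2, HEATR1 and NOB1).

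**Figure D1:**
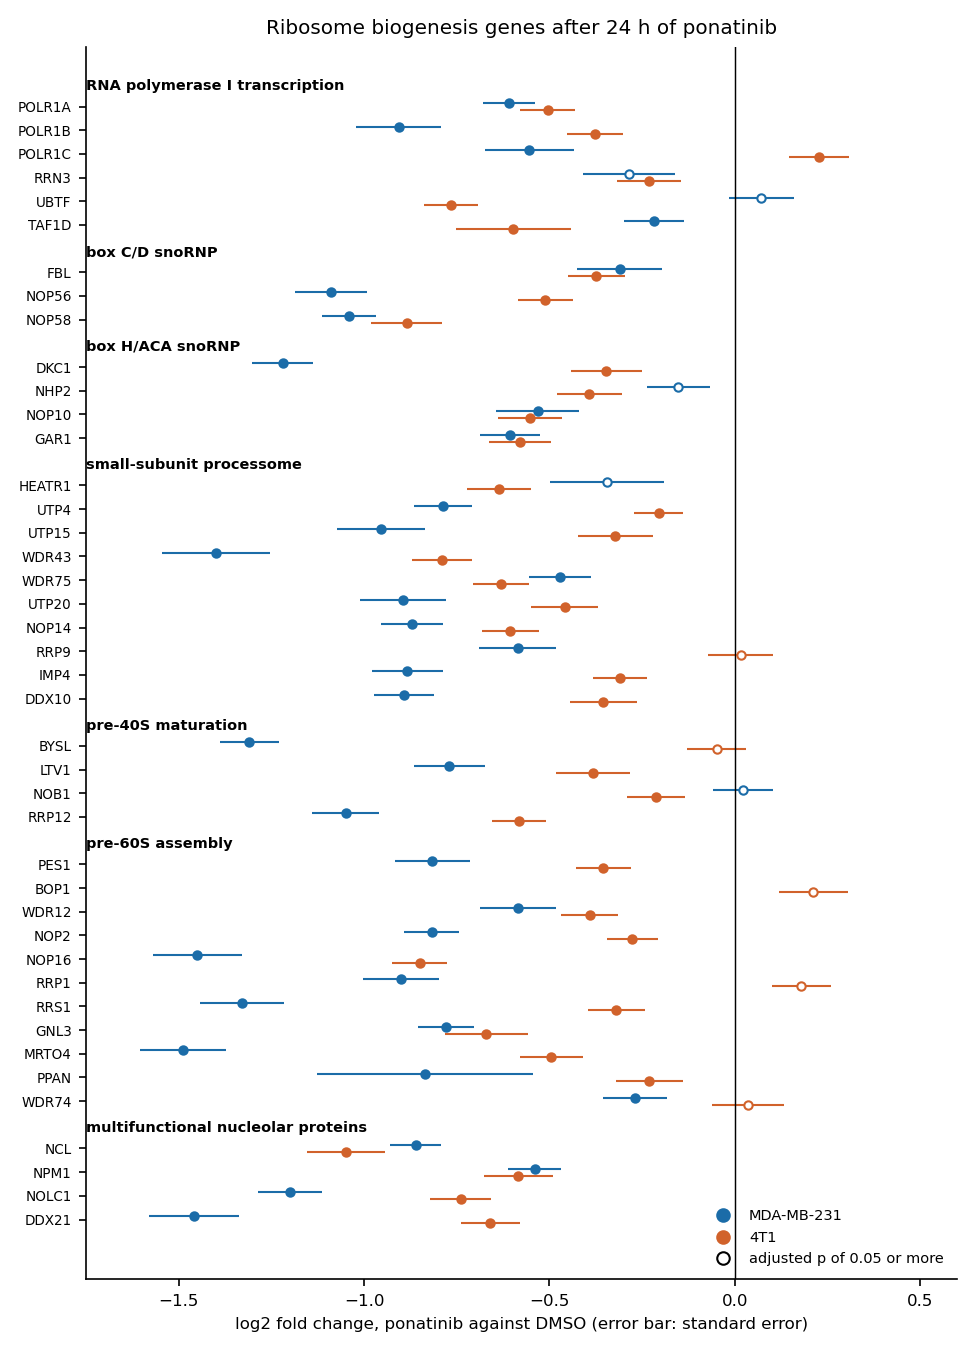
Log2 fold change of each of the 42 ribosome biogenesis genes, ponatinib against DMSO, by role, in MDA-MB-231 (blue) and 4T1 (orange). Points are edgeR estimates from 3 libraries per group, bars are standard errors, and open points did not pass the test. Most points lie left of 0 in both lines, and the largest falls, near -1.5, are those of MRTO4, DDX21 and NOP16 in MDA-MB-231.

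The scaling of libraries moved these values together. When library totals were used without a composition factor, the median of all genes moved to 0.11 in MDA-MB-231, where 60% of all calls were then higher in place of 50.4%, and to 0.12 in 4T1, where 62.3% were higher in place of 50.1%. Relative to the median of all genes, the median of the ribosome biogenesis genes was -0.83 under both scalings for MDA-MB-231 and -0.39 under both for 4T1. With such totals, 32 of the genes fell and 0 rose in MDA-MB-231, against 29 and 3 in 4T1. The calls lost with them were those of TAF1D, FBL, PPAN and WDR74 in MDA-MB-231 (adjusted p = 0.0605 to 0.278), and of Rrn3, Dkc1, Utp4, Utp15, Nob1, Nop2 and Ppan in 4T1 (adjusted p = 0.051 to 0.3), and those gained were of Rrp1 and Bop1 as higher in 4T1 (adjusted p = 0.00339 and 0.00545).

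The RNA polymerase I group comprises POLR1A and POLR1B, its large catalytic subunits, POLR1C, a subunit shared with RNA polymerase III, RRN3 and TAF1D, which act in initiation, and UBTF, which binds the ribosomal DNA and keeps it open. In MDA-MB-231, 4 of these 6 were lower and 0 higher (5 lower and 0 higher at an unadjusted p under 0.05), and POLR1B fell most. POLR1B was at 27.5, 34.6 and 31.6 CPM in the DMSO libraries and at 15.2, 17.1 and 17.6 CPM in the ponatinib libraries. All ponatinib libraries lay below all DMSO libraries, a log2 fold change of -0.91 (SE 0.11, edgeR adjusted p = 4.31e-05). In 4T1, Polr1b was at a higher level, 105, 113 and 100 CPM with DMSO against 84.3, 80.4 and 80.2 CPM with ponatinib, and fell less, with a log2 fold change of -0.38 (SE 0.07, edgeR adjusted p = 0.000534). POLR1A, the largest subunit, fell by 0.61 on the log2 scale in MDA-MB-231 and by 0.50 in 4T1.

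UBTF separated the lines. In 4T1, Ubtf was at 362, 381 and 375 CPM with DMSO and at 207, 223 and 228 CPM with ponatinib. It was the largest fall of this group in 4T1, with no overlap, at a log2 fold change of -0.77 (SE 0.07, edgeR adjusted p = 5.47e-07). In MDA-MB-231, UBTF was at 232, 192 and 194 CPM with DMSO and at 222, 220 and 207 CPM with ponatinib. These groups overlapped, with a log2 fold change of 0.07 (SE 0.09, edgeR adjusted p = 0.512). Without replicate 1 of both groups it was called higher, at 0.14 (edgeR adjusted p = 0.0273). TAF1D was lower in both lines, by 0.22 on the log2 scale in MDA-MB-231 and by 0.60 in 4T1, but its 4T1 groups overlapped. The MDA-MB-231 call for TAF1D was lost in 8 of 13 other settings, among them each omission of a library other than DMSO replicate 1 (adjusted p = 0.0528 to 0.159). RRN3 was lower in 4T1 by 0.23 on the log2 scale (edgeR adjusted p = 0.0329), a call lost without DMSO replicate 2, ponatinib replicate 2 or ponatinib replicate 3 (adjusted p = 0.108, 0.08 and 0.138) or with no filter on low counts (adjusted p = 0.0567). In MDA-MB-231 the log2 fold change of RRN3 was -0.29 (edgeR adjusted p = 0.0716, and 0.00808 with the replicate number as a block), and it passed the test without DMSO replicate 1 (-0.41, adjusted p = 0.011), with replicates 2 and 3 alone (adjusted p = 0.00827) and with no filter on low counts (adjusted p = 0.0399).

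POLR1C was the gene with calls in opposite directions. In MDA-MB-231 it was at 41.5, 33.2 and 33.3 CPM with DMSO and at 27.6, 23.8 and 22.2 CPM with ponatinib, without overlap, and fell by 0.55 on the log2 scale (SE 0.12, edgeR adjusted p = 0.00212). In 4T1, Polr1c was at 126, 107 and 112 CPM with DMSO and at 143, 127 and 134 CPM with ponatinib. The 4T1 groups came close without overlapping, and the log2 fold change was 0.23 (SE 0.08, edgeR adjusted p = 0.0248). That call was lost when DMSO replicate 2, DMSO replicate 3, ponatinib replicate 1 or ponatinib replicate 3 was left out (adjusted p = 0.1, 0.0791, 0.0997 and 0.0562).

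The snoRNP proteins form complexes of 2 kinds. The box C/D complexes, which methylate ribosomal RNA, hold the methyltransferase FBL with NOP56 and NOP58, and all 3 genes were lower in both lines. In MDA-MB-231, NOP56 was at 549, 465 and 455 CPM with DMSO and at 254, 223 and 211 CPM with ponatinib. The ponatinib libraries held less than the lowest DMSO library by a wide margin, a log2 fold change of -1.09 (SE 0.10, edgeR adjusted p = 2.81e-06). In 4T1 the largest fall was that of Nop58, from 296, 350 and 366 CPM to 162, 200 and 186 CPM, a log2 fold change of -0.89 (SE 0.10, edgeR adjusted p = 2.27e-06). NOP58 fell by 1.04 on the log2 scale in MDA-MB-231. FBL fell least, by 0.31 in MDA-MB-231, where its groups overlapped, and by 0.37 in 4T1. The MDA-MB-231 call for FBL was lost without DMSO replicate 1, DMSO replicate 2, ponatinib replicate 2 or ponatinib replicate 3 (adjusted p = 0.11, 0.0562, 0.108 and 0.132).

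The box H/ACA complexes, which turn uridines of ribosomal RNA into pseudouridine, hold the pseudouridine synthase DKC1 with NHP2, NOP10 and GAR1. All 4 genes were lower in 4T1 and 3 in MDA-MB-231. DKC1 was at 128, 148 and 141 CPM with DMSO and at 57.0, 59.5 and 62.3 CPM with ponatinib in MDA-MB-231. The 3 ponatinib libraries were close together and far below the DMSO libraries, with a log2 fold change of -1.22 (SE 0.08, edgeR adjusted p = 4.07e-07). In 4T1, Dkc1 was at 62.0, 76.6 and 78.5 CPM with DMSO and at 54.5, 61.0 and 55.4 CPM with ponatinib, a smaller log2 fold change of -0.35 (SE 0.10, edgeR adjusted p = 0.00607). Of the mouse Dkc1 exons, 20.1% overlapped exons of Mpp1 on the opposite strand, and whether reads were counted by strand is not given in the sources used here. Gar1 had the largest fall of the group in 4T1, from 143, 119 and 129 CPM to 90.9, 89.8 and 80.9 CPM, a log2 fold change of -0.58 (SE 0.08, edgeR adjusted p = 3.19e-05). GAR1 and NOP10 fell by similar amounts in MDA-MB-231, 0.61 and 0.53 on the log2 scale. NHP2 was the exception there, with a log2 fold change of -0.15 (SE 0.08, edgeR adjusted p = 0.148, 0.00663 with the replicate number as a block and 0.0444 with replicates 2 and 3 alone), and 28.0% of its exons overlapped RMND5B on the opposite strand, as did 25.1% of those of mouse Nhp2.

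The small-subunit processome, the large particle in which the precursor of the small subunit is folded and cut, was represented by HEATR1, UTP4, UTP15, WDR43, WDR75, UTP20, NOP14, RRP9, IMP4 and DDX10. In each line 9 of these 10 genes were lower and 0 were higher (0 higher at an unadjusted p under 0.05 and 0 by DESeq2). WDR43 led in both lines. In MDA-MB-231 it was at 54.3, 71.4 and 73.0 CPM with DMSO and at 19.9, 27.2 and 28.0 CPM with ponatinib, and in 4T1 Wdr43 was at 278, 334 and 322 CPM with DMSO and at 176, 188 and 177 CPM with ponatinib. The groups were apart in both lines, with a log2 fold change of -1.40 (SE 0.15, edgeR adjusted p = 9.30e-06) in MDA-MB-231 and -0.79 (SE 0.08, edgeR adjusted p = 1.36e-06) in 4T1. The medians of the 10 genes were -0.88 and -0.41 on the log2 scale.

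Among the other processome genes, UTP15, UTP4 and WDR75, which belong with WDR43 and HEATR1 to its subcomplex that first meets the ribosomal RNA, were lower in both lines. On the log2 scale, UTP15 fell by 0.95 in the human line and by 0.32 in the mouse line, UTP4 by 0.79 and by 0.21, and WDR75 by 0.47 and by 0.63. The 4T1 call for Utp15 was lost without DMSO replicate 2 or ponatinib replicate 3 (adjusted p = 0.0947 and 0.0537), and that for Utp4 without ponatinib replicate 2 (adjusted p = 0.0604). HEATR1 was lower in 4T1, by 0.64 on the log2 scale. In MDA-MB-231 its libraries overlapped, at 20.0, 25.4 and 24.0 CPM with DMSO and at 16.5, 15.3 and 22.8 CPM with ponatinib, with a log2 fold change of -0.35 (SE 0.15, edgeR adjusted p = 0.0781). The call appeared without ponatinib replicate 3 or DMSO replicate 1 (log2 fold changes of -0.54 and -0.45, adjusted p = 0.00678 and 0.0309) with replicates 2 and 3 alone (adjusted p = 0.0298), with no filter on low counts (adjusted p = 0.0123) and with the replicate number as a block (adjusted p = 0.00572), and 23.1% of the human HEATR1 exons overlapped LGALS8 on the opposite strand. UTP20, a long scaffold protein, NOP14, IMP4 and the RNA helicase DDX10 fell by 0.87 to 0.90 on the log2 scale in MDA-MB-231 and by 0.31 to 0.61 in 4T1. Of the human NOP14 exons, 20.7% overlapped NOP14-AS1 on the opposite strand. RRP9, the protein specific to the U3 snoRNP, fell by 0.59 on the log2 scale in MDA-MB-231, while its 4T1 libraries overlapped at 72.9, 68.9 and 60.5 CPM with DMSO and 64.9, 66.4 and 73.3 CPM with ponatinib.

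**Figure D2:**
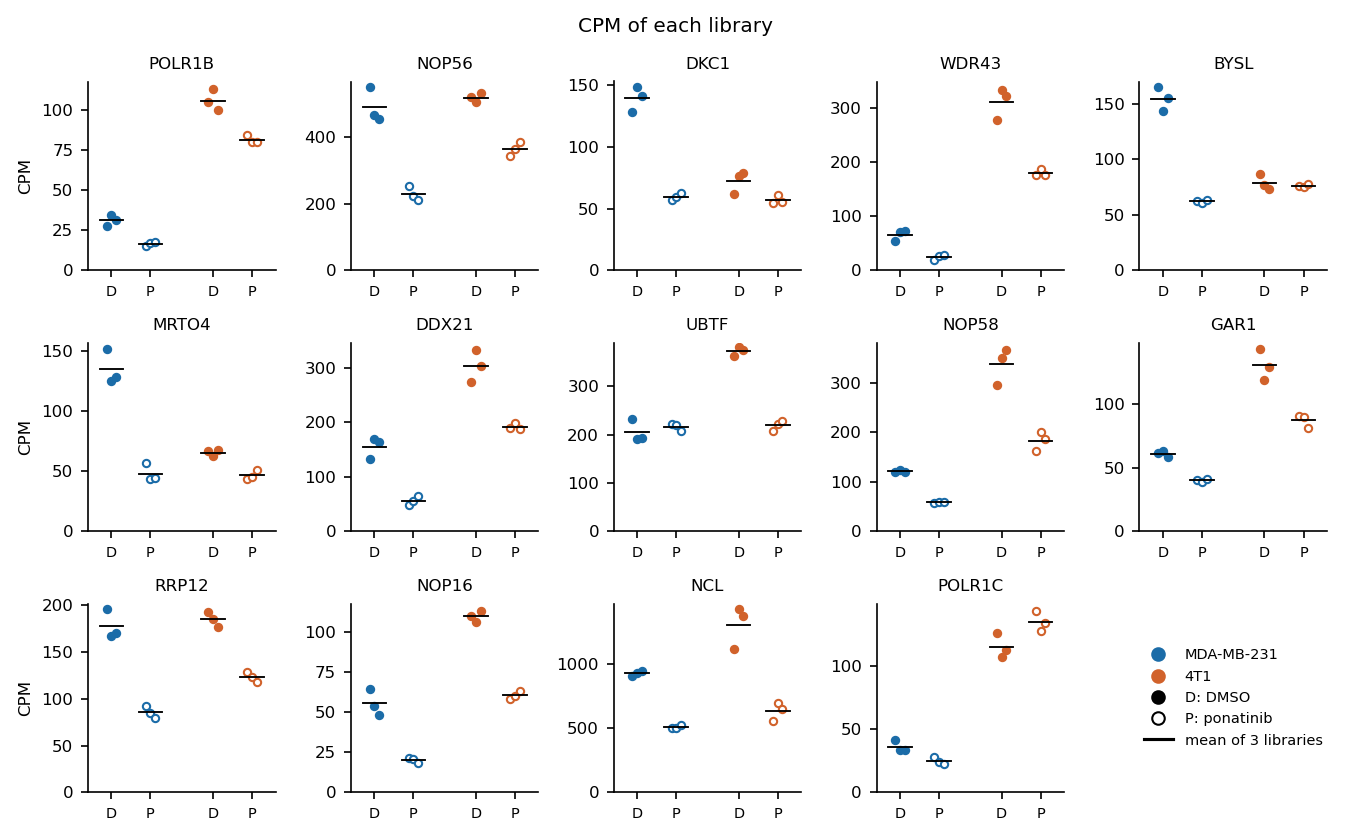
CPM of each library for 14 ribosome biogenesis genes, in MDA-MB-231 (blue) and 4T1 (orange), with DMSO (filled) and ponatinib (open); bars are means of 3 libraries and axes start at 0. Open points lie below filled points in both lines for 11 of the genes, UBTF overlaps in MDA-MB-231, BYSL overlaps in 4T1, and POLR1C lies lower in MDA-MB-231 and higher in 4T1.

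Later steps of the small subunit involve BYSL, LTV1 and RRP12, which act in its assembly and export, and the endonuclease NOB1, which makes the last cut at the end of the small-subunit RNA. In each line 3 of the 4 genes were lower and 0 were higher (0 higher at an unadjusted p under 0.05 and 0 by DESeq2), but not the same 3. BYSL was at 165, 144 and 155 CPM with DMSO and at 62.1, 60.8 and 63.5 CPM with ponatinib in MDA-MB-231, and at 86.5, 77.3 and 73.4 CPM against 76.5, 75.0 and 77.9 CPM in 4T1. It fell 2.49-fold in MDA-MB-231, without overlap (log2 fold change -1.31, SE 0.08, edgeR adjusted p = 1.63e-07), whereas its 4T1 groups overlapped (log2 fold change -0.05, SE 0.08, edgeR adjusted p = 0.622). RRP12 fell in both lines, and Rrp12 led the group in 4T1, from 193, 185 and 177 CPM to 129, 123 and 118 CPM, a log2 fold change of -0.58 (SE 0.07, edgeR adjusted p = 8.26e-06). In MDA-MB-231, RRP12 fell by 1.05 on the log2 scale. LTV1 fell by 0.77 and by 0.38 on the log2 scale in MDA-MB-231 and 4T1, and 27.6% of its human exons were shared with another annotated gene on the same strand that was not among the counted identifiers. NOB1 was close between groups in MDA-MB-231, at a mean of 56.6 ± 0.995 CPM in the DMSO libraries and 57.5 ± 3.57 CPM in the ponatinib libraries (SD, n = 3 each), and 20.4% of its human exons overlapped NQO1-DT on the opposite strand. In 4T1, Nob1 fell by 0.21 on the log2 scale (edgeR adjusted p = 0.031), a call lost without DMSO replicate 1, DMSO replicate 2, ponatinib replicate 1 or ponatinib replicate 2 (adjusted p = 0.0586, 0.0675, 0.0937 and 0.151) or with replicates 2 and 3 alone (adjusted p = 0.11).

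The factors of the large subunit were the largest group, with PES1, BOP1 and WDR12, which form a complex of their own, the RNA methyltransferase NOP2, the nucleolar GTPase GNL3, and NOP16, RRP1, RRS1, MRTO4, PPAN and WDR74. All 10 tested in MDA-MB-231 fell. MRTO4, which holds the place of the stalk proteins in the precursor, was at 152, 125 and 129 CPM with DMSO and at 56.7, 43.4 and 44.1 CPM with ponatinib. This was the largest fall among the 42 genes in MDA-MB-231, 2.81-fold and without overlap (log2 fold change -1.49, SE 0.12, edgeR adjusted p = 1.08e-06). In 4T1, Mrto4 fell from 67.1, 62.6 and 67.5 CPM to 43.6, 45.3 and 51.1 CPM (log2 fold change -0.50, SE 0.08, edgeR adjusted p = 0.00016).

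In 4T1, 8 of the 11 were lower and 0 higher (2 higher at an unadjusted p under 0.05, Bop1 and Rrp1). Nop16 led, from 110, 106 and 113 CPM to 58.5, 60.3 and 63.5 CPM. It fell 1.80-fold with tight groups (log2 fold change -0.85, SE 0.07, edgeR adjusted p = 2.36e-07), and in MDA-MB-231 NOP16 fell by 1.45 on the log2 scale. RRS1 fell in the human line by 1.33 on the log2 scale and in the mouse line by 0.32, where 39.4% of the mouse Rrs1 exons overlapped an antisense noncoding gene. PES1, WDR12, NOP2 and GNL3 were lower in both lines, by 0.59 to 0.82 on the log2 scale in MDA-MB-231 and by 0.28 to 0.67 in 4T1. RRP1 fell by 0.90 on the log2 scale in MDA-MB-231. In 4T1, Rrp1 was at 293, 246 and 264 CPM with DMSO and at 309, 293 and 308 CPM with ponatinib, and Bop1 at 186, 145 and 155 CPM with DMSO and at 195, 172 and 196 CPM with ponatinib. Both sets of groups overlapped, and neither gene passed the test (edgeR adjusted p = 0.0624 for each). With the replicate number as a block both did, as higher (adjusted p = 0.0151 for Rrp1 and 0.00473 for Bop1), and so they did without DMSO replicate 1 (adjusted p = 0.00892 and 0.00234); Bop1 did also without ponatinib replicate 2 (adjusted p = 0.0341).

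WDR74 fell by 0.27 on the log2 scale in MDA-MB-231 (edgeR adjusted p = 0.0199), a call lost without ponatinib replicate 2 or ponatinib replicate 3 (adjusted p = 0.0553 and 0.0609), and its 4T1 groups overlapped. PPAN was barely covered in MDA-MB-231, at 2.59, 2.27 and 3.59 CPM with DMSO and at 1.07, 1.59 and 2.03 CPM with ponatinib, where 47.6% of its exons overlapped the readthrough gene PPAN-P2RY11 on the same strand. Its log2 fold change there was -0.84 (SE 0.29, edgeR adjusted p = 0.0301), a call lost without DMSO replicate 3, ponatinib replicate 1 or ponatinib replicate 2 (adjusted p = 0.136, 0.0883 and 0.0697) or with replicates 2 and 3 alone (adjusted p = 0.076). In 4T1 the Ppan groups overlapped, with a log2 fold change of -0.23 (edgeR adjusted p = 0.0404), and that call was lost when any of DMSO replicate 1, DMSO replicate 3 or the 3 ponatinib libraries was left out (adjusted p = 0.0592 to 0.158) or with replicates 2 and 3 alone (adjusted p = 0.312). NOP2 in MDA-MB-231 also shared 54.4% of its exons with another annotated gene on the same strand that was not among the counted identifiers.

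The last group holds abundant nucleolar proteins of several roles: the RNA-binding protein NCL, the chaperone NPM1, NOLC1, which binds snoRNPs, and the RNA helicase DDX21. All 4 genes were lower in both lines, without overlap. In 4T1, Ncl was at 1120, 1430 and 1380 CPM with DMSO and at 557, 699 and 652 CPM with ponatinib, and this was the largest fall among the 42 genes there. It was 2.06-fold (log2 fold change -1.05, SE 0.10, edgeR adjusted p = 1.05e-06), and no other of the 42 reached 2-fold in 4T1, while 11 did in MDA-MB-231. In MDA-MB-231, NCL fell from 912, 932 and 948 CPM to 503, 504 and 530 CPM (log2 fold change -0.86, SE 0.07, edgeR adjusted p = 1.37e-06).

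DDX21 fell most of this group in MDA-MB-231, from 133, 170 and 163 CPM to 48.4, 55.7 and 65.2 CPM. The fall was 2.75-fold (log2 fold change -1.46, SE 0.12, edgeR adjusted p = 1.72e-06), against -0.66 (SE 0.08) in 4T1. NOLC1 fell by 1.20 and by 0.74 on the log2 scale in MDA-MB-231 and 4T1, and NPM1 by 0.54 and by 0.58. NPM1 reads may be shared with copies, since 49 human pseudogenes bearing its name were among the counted identifiers. Per kilobase of transcript, NPM1 had the highest level of the 42 genes in MDA-MB-231 with DMSO, 1320 ± 26.1 CPM per kb (SD, n = 3), followed by FBL at 473 ± 64.4 CPM per kb (SD, n = 3). NOP56 at 256 ± 26.9, NCL at 237 ± 4.55 and NOP10 at 224 ± 27.3 CPM per kb (SD, n = 3 each) came next and lay within their spread of each other. POLR1B at 4.15 ± 0.474, HEATR1 at 2.74 ± 0.337 and PPAN at 1.22 ± 0.299 CPM per kb (SD, n = 3 each) were the lowest of the genes with counts.

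The lines were compared directly by testing in edgeR whether the treatment effect depended on the line, for 9845 genes with the same symbol in both species. Among these, 51.4% differed between the lines in their log2 fold change. Of the 41 ribosome biogenesis genes tested, 24 differed, 23 with the more negative value in MDA-MB-231 and 1, UBTF, with a more negative value in 4T1, and 17 were not called. The share with a difference, 24 of 41, was near that of all genes. The median difference over all 9845 genes, 4T1 minus MDA-MB-231, was 0.0577, and their calls were not split by direction. With the replicate number as a block, 31 differed, 25 of them with MDA-MB-231 the more negative and 6 with 4T1, and 6258 of all 9845 genes differed. With replicates 2 and 3 alone, 25 differed, WDR74 being added (adjusted p = 0.00466). The largest differences, 4T1 minus MDA-MB-231, were 1.26 for BYSL (SE 0.11, edgeR adjusted p = 7.70e-08), 1.08 for RRP1 (SE 0.13, edgeR adjusted p = 3.62e-06) and 1.01 for RRS1 (SE 0.14, edgeR adjusted p = 1.09e-05). For UBTF the difference was -0.84 (SE 0.11, edgeR adjusted p = 9.91e-06). Of the 24 calls, those for NOP14, LTV1 and UTP20 (edgeR adjusted p = 0.0479, 0.0337 and 0.0258) were lost when some single libraries were left out. With 1 library left out, the call for NOP14 was lost except without DMSO replicate 3 or ponatinib replicate 1 of 4T1 (adjusted p up to 0.126), and that for LTV1 was lost without DMSO replicate 2 or ponatinib replicate 3 of MDA-MB-231 and without DMSO replicate 1 or 2 or ponatinib replicate 2 or 3 of 4T1 (up to 0.0929). The call for UTP20 was lost without DMSO replicate 2 or 3 or ponatinib replicate 2 of MDA-MB-231 and without DMSO replicate 1 or 3 or ponatinib replicate 1 or 2 of 4T1 (up to 0.069). NCL, NPM1, NOP58, GAR1, NOP10 and FBL were not called different, with differences of -0.18 to 0.15 on the log2 scale and standard errors of 0.12 to 0.15. With the replicate number as a block NCL was called, at -0.18 (adjusted p = 0.0327), with 4T1 the more negative.

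**Figure D3:**
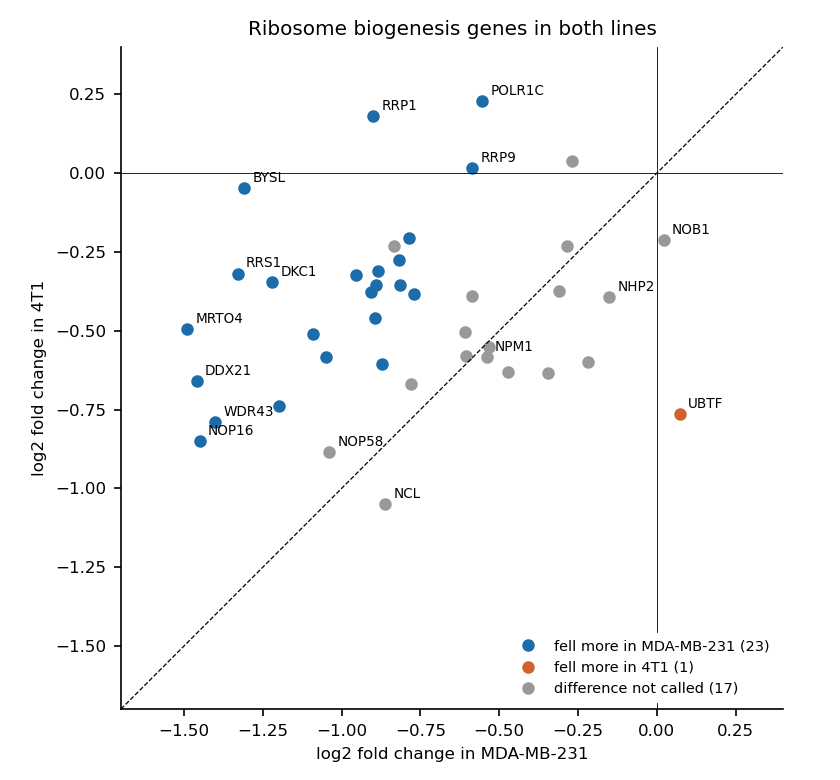
Log2 fold change of 41 ribosome biogenesis genes in MDA-MB-231 (horizontal axis) and 4T1 (vertical axis), coloured by the edgeR test of the difference between the lines; the dashed line marks equal values. The 23 blue points lie above the dashed line, where MDA-MB-231 fell more, UBTF lies below it, and 17 grey points were not called different.

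The other genes of the pathway, 120 further ribosome biogenesis genes listed by role, moved mostly the same way, with medians nearer 0. In MDA-MB-231, 100 of the 118 tested fell and 4 rose, with a median log2 fold change of -0.57. Of all genes tested there, 26.8% fell and 27.2% rose. BRIX1, a large-subunit assembly factor, fell from 59.0 ± 2.53 to 21.1 ± 1.15 CPM (SD, n = 3 each), and POLR1G and EMG1 followed, with log2 fold changes of -1.48 and -1.46. The largest rises were those of NOP53 (0.82), TAF1C (0.38) and RIOK3 (0.35). In 4T1, 67 of 118 were lower and 4 higher, with a median of -0.26. These counts became 45 lower and 11 higher on library totals without a composition factor. With the main scaling, the 4T1 share lower was 36.4% of 11 RNA polymerase I genes (median -0.02) and 47.1% of 34 processome genes. It was 53.8 to 75% in the other roles, against 29.4% of all genes tested. Mdn1, the giant ATPase that remodels large-subunit precursors, fell from 151 ± 12.6 to 73.6 ± 13.0 CPM (SD, n = 3 each), and Dis3 and Noc3l fell by 1.00 and by 0.87 on the log2 scale. Shq1 (0.91), Pih1d1 (0.81) and Rrp36 (0.49) had the largest rises.

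The genes of the ribosomal proteins themselves did not share these values. Of 78 tested in MDA-MB-231, 5 fell and 0 rose (2 higher at an unadjusted p under 0.05 and 0 by DESeq2), with a median log2 fold change of -0.01 that became 0.08, with 3 lower and 14 higher, on library totals without a composition factor, and 21 lower and 19 higher with the replicate number as a block. RPL26, RPL27 and RPL6 had the largest falls among those above 10 CPM, of 0.68, 0.26 and 0.26 on the log2 scale. RPL26 was at a mean of only 14.3 CPM with DMSO, against 1120 and 2350 CPM for RPL27 and RPL6. In 4T1, 18 of 78 were lower and 2 higher, with a median of -0.13, against 7 lower and 7 higher on library totals without a composition factor and 30 lower and 3 higher with the block. Rpl34, Rpl12 and Rpl9 had the largest falls there, of 0.52, 0.48 and 0.40, and Rpl37a rose by 0.26. Rpl34 was at a mean of 40.8 CPM with DMSO, against 2130 and 675 CPM for Rpl12 and Rpl9. CACGTG was present for 4 of the 63 ribosomal protein genes with a promoter window (6.35%), for 28 of 101 other ribosome biogenesis genes (27.7%), and for 11 of 18 MYC targets outside the nucleolus (61.1%).

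**Figure D4:**
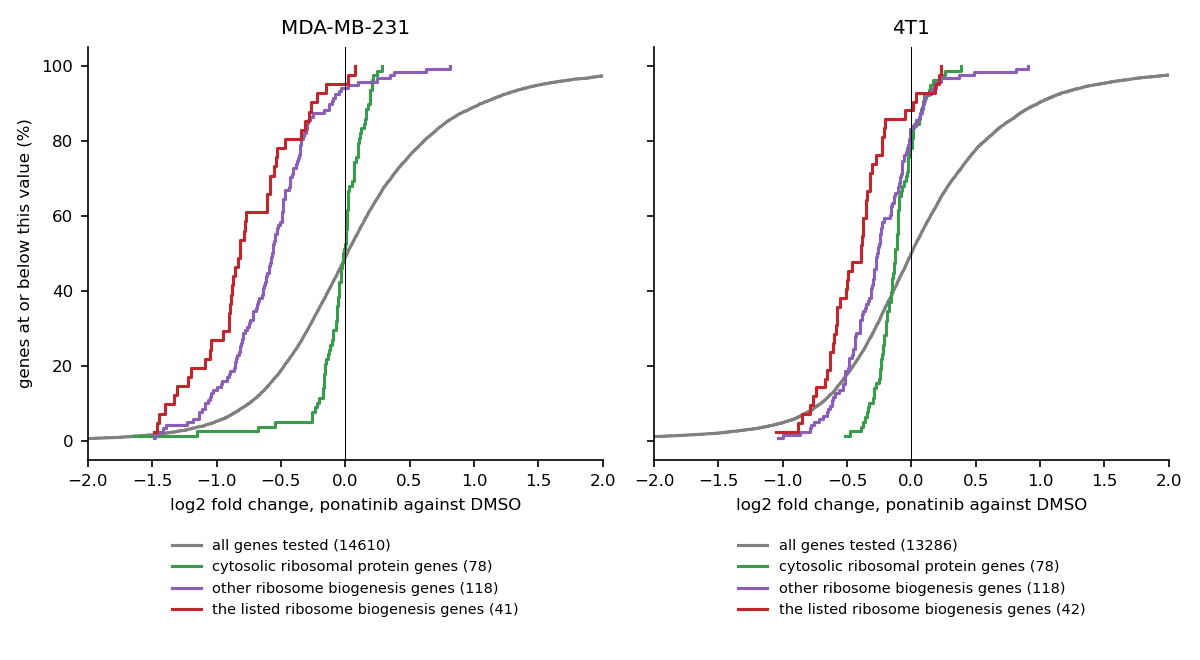
Cumulative share of genes (%) at or below each log2 fold change, ponatinib against DMSO, for all genes tested (grey), cytosolic ribosomal protein genes (green), other ribosome biogenesis genes (purple) and the ribosome biogenesis genes described here (red), in each line. The red curve crosses 50% at -0.82 for MDA-MB-231 and -0.39 for 4T1, left of the purple curve (-0.57 and -0.26), while the grey curve crosses near 0.

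MYC RNA was lower in both lines. In MDA-MB-231 it was at 336, 331 and 346 CPM with DMSO and at 222, 248 and 260 CPM with ponatinib, a log2 fold change of -0.47 (SE 0.08, edgeR adjusted p = 0.000334). In 4T1, Myc was at 830, 725 and 710 CPM with DMSO and at 423, 392 and 407 CPM with ponatinib, a log2 fold change of -0.89 (SE 0.08, edgeR adjusted p = 3.86e-07). The groups did not overlap in either line. MYC fell more in 4T1, with a difference of -0.42 (SE 0.11, edgeR adjusted p = 0.00542). Of the 24 ribosome biogenesis genes with a called difference, 23 fell more in MDA-MB-231. Over all genes tested, 51.4% had a called difference, and those calls were not split by direction. A relation between the change of MYC and the changes of the ribosome biogenesis genes was not tested.

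Several partners and antagonists of MYC differed between the lines, as did 51.4% of all genes tested. MXD3, MGA and MYCL were not called different (edgeR adjusted p = 0.442, 0.556 and 0.49). In MDA-MB-231, MAX, the obligate partner, and MLX, a related factor, were lower by 0.31 and by 0.40 on the log2 scale. MXI1, MXD4 and MXD3, which pair with MAX and repress at E-boxes, were higher, as was MNT, another such repressor. MXI1 rose from 8.22, 10.3 and 11.4 CPM to 28.2, 33.7 and 32.0 CPM, a log2 fold change of 1.65 (SE 0.13, edgeR adjusted p = 1.41e-06). MXD4 rose by 1.39, MXD3 by 0.81 and MNT by 0.52. With the replicate number as a block, 6 genes of this network were lower in place of 3, with MGA, MLXIP and MXD1 added (adjusted p = 0.00413, 0.00311 and 0.0125), whose log2 fold changes without the block were -0.30, -0.16 and -0.38. MGA was also called without DMSO replicate 1 and MXD1 without ponatinib replicate 3 (adjusted p = 0.0336 and 0.0407), and MGA and MLXIP with replicates 2 and 3 alone (adjusted p = 0.0412 and 0.0448). In 4T1, Mxd1, Mnt, Mlxip, Mga and Mxi1 were lower, by 1.18, 0.80, 0.48, 0.43 and 0.39 on the log2 scale, while Max and Mlx were not called, at log2 fold changes of 0.05 and 0.11. Mxd4 rose by 0.79 and Mxd3 by 1.09, the latter at 0.888 CPM with DMSO. Mycn was higher in 4T1 at trace level, 0.204 CPM with DMSO and 1.10 CPM with ponatinib, and had 0 counts in MDA-MB-231, while MYCL was at 1.25 CPM or less on average in MDA-MB-231 and was called in neither line. Mxi1 and Mnt thus had calls in opposite directions in the lines, with differences of -2.03 and -1.31 (edgeR adjusted p = 2.93e-08 and 3.92e-06).

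**Figure D5:**
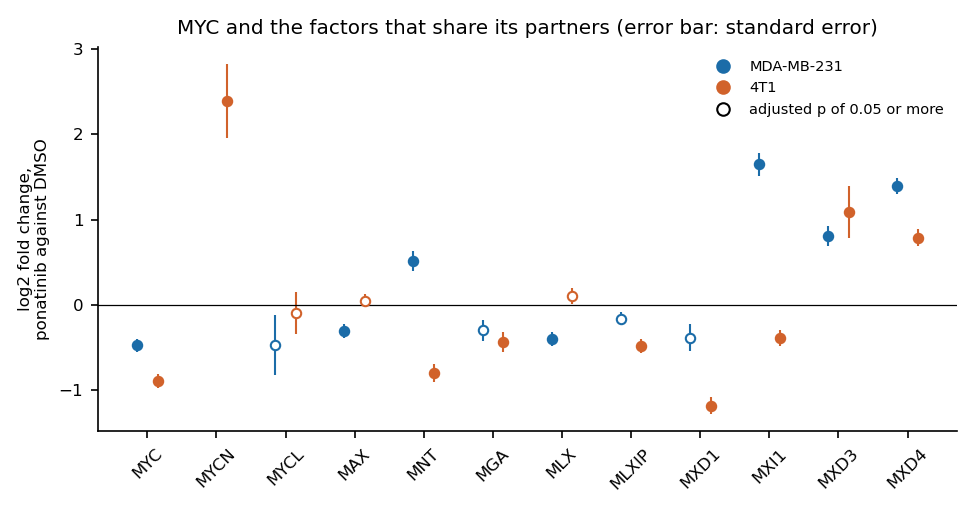
Log2 fold change, ponatinib against DMSO, of MYC and factors that share its partners, in MDA-MB-231 (blue) and 4T1 (orange); bars are standard errors, and open points did not pass the edgeR test. MYC lies below 0 in both lines, MXD3 and MXD4 lie above 0 in both, and MXI1 and MNT lie above 0 in MDA-MB-231 and below 0 in 4T1.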

How the data were processed

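The 12 RNA-seq libraries, of MDA-MB-231 or 4T1 cells, were grouped by the line and treatment in their labels. As the methods state, the authors trimmed adapters, discarded poly-N reads, mapped reads with HISAT2 (hg38 for human, GRCm39 for mouse) and summarised them by gene with HTSeq. The values they deposited are counts per gene without normalization. Tool versions, annotation and strand setting are not given in the sources used here. Identifiers were named through GENCODE v44 (81.9% of the human identifiers, 99.3% of their counts) and vM39 (91.1% and 99.8% in mouse).

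Counts were tested per line in R 4.3.3 with edgeR 4.0.16, by its quasi-likelihood test after filterByExpr and TMM scaling, with Benjamini-Hochberg adjustment over all genes tested and a threshold of 0.05, and the difference between lines as an interaction. CPM were computed from the counts with TMM-scaled totals, and levels per kb with the length of the Ensembl canonical transcript. The common coefficient of biological variation between replicates was 0.099 (MDA-MB-231) and 0.0869 (4T1). The chi-square per gene between replicates was 2.93 to 16.5, so none was a copy, and was lowest between replicates 2 and 3 in every group. Same-numbered DMSO and ponatinib libraries deviated together (MDA-MB-231 correlations 0.345, 0.111 and 0.133, 4T1 correlations 0.213, 0.119 and 0.115). Differently numbered ones correlated at -0.26 to 0.163 in MDA-MB-231 and at -0.213 to 0.119 in 4T1. Beyond replicate 1 the correlations therefore do not tell pairs apart, and nothing states what a number marks. The main tests did not pair libraries by number, which was done only in the replicate block, an alternative. The main edgeR fits, per line and of the difference between the lines, were tested on simulated counts with known changes.

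Alternatives were DESeq2 1.42.0, its size factors in edgeR, library totals without TMM, the absence of a filter, a minimum of 10 counts in every library, a 1.5-fold minimum, the replicate block, each library left out and, chosen after seeing the data, replicates 2 and 3 alone. Promoters are RefSeq sequences of GRCh38.p14. The genes and lists were chosen with earlier results of these data known. Per-library values are given for the gene with the largest called change in each role group and line, for genes called in opposite directions and for MYC. Of the other lists, up to 3 rises and 3 falls with a mean of at least 10 CPM are named, and genes given per-library values outside this rule were chosen after their values were seen. Values of 2 single genes of these lists are not reported here.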

Additional observations from a re-analysis of the deposited data

Results flagged for a closer look

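For 24 ribosome biogenesis genes the log2 fold change differed between the lines in the interaction test of edgeR at an adjusted p under 0.05, and the differences are given here as 4T1 minus MDA-MB-231. Among RNA polymerase I genes the difference was 0.53 for POLR1B, 0.78 for POLR1C and -0.84 for UBTF. Among snoRNP genes it was 0.58 for NOP56 and 0.88 for DKC1. In the processome it was 0.58 for UTP4, 0.63 for UTP15, 0.61 for WDR43, 0.44 for UTP20, 0.26 for NOP14, 0.60 for RRP9, 0.57 for IMP4 and 0.54 for DDX10. In the later steps of the small subunit it was 1.26 for BYSL, 0.39 for LTV1 and 0.47 for RRP12. Among large-subunit factors it was 0.46 for PES1, 0.54 for NOP2, 0.60 for NOP16, 1.08 for RRP1, 1.01 for RRS1 and 1.00 for MRTO4. Of the remaining nucleolar proteins, NOLC1 differed by 0.46 and DDX21 by 0.80. UBTF was the gene with a difference below 0, and 51.4% of all 9845 genes tested had a called difference.

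In the MYC network, the difference was -0.42 for MYC, 0.36 for MAX, -1.31 for MNT, 0.51 for MLX, -0.32 for MLXIP, -0.79 for MXD1, -2.03 for MXI1 and -0.60 for MXD4. The call for MLXIP was lost without DMSO replicate 2 of MDA-MB-231 or ponatinib replicate 2 of 4T1 (adjusted p = 0.0584 and 0.0519). Groups of 3 libraries were too small for an outlier test on single values.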

How the results depend on the processing

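Of the 36 ribosome biogenesis genes called in MDA-MB-231, 32 were called in the same direction under every alternative run other than the 1.5-fold minimum, as were 29 of the 37 called in 4T1 and 21 of the 24 that differed between the lines (the exceptions there being NOP14, LTV1 and UTP20). With 1 library left out, MDA-MB-231 had 32 to 37 genes lower and 0 higher, 4T1 had 32 to 35 lower and 0 to 3 higher, and 22 to 24 differed between the lines. The number higher in 4T1, 1, became 3 on library totals, with at least 10 counts in every library and with the replicate block, 2 with no filter and 0 with a 1.5-fold minimum, which left 12 lower there and 29 in MDA-MB-231. Without a filter, 38 fell in MDA-MB-231 and 35 of the mouse genes did. Replicates 2 and 3 alone, an alternative chosen after seeing the data, left MDA-MB-231 with 38 falls and 1 rise, 4T1 with 34 and 3, and 25 genes that differed, and turned the signs of NOB1 in MDA-MB-231 (-0.0468), Bysl in 4T1 (0.0177) and the differences of FBL (0.0258) and NOP10 (0.0146). The replicate block left 39 lower in MDA-MB-231, 36 in 4T1 and 31 that differed, and beyond the genes given beside their results it added calls for a difference of TAF1D, NHP2, HEATR1, NOB1, PPAN, WDR74 and NCL.

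With 1 library left out, a difference between the lines was also called for NOB1 (without 4T1 ponatinib replicate 3), PPAN (without MDA-MB-231 DMSO replicate 2 or ponatinib replicate 3, or 4T1 DMSO replicate 1), WDR74 (without 4T1 DMSO replicate 1) and TAF1D (without 4T1 DMSO replicate 1 or ponatinib replicate 2), at adjusted p of 0.00627 to 0.037. Values that changed sign were small and not called. For MDA-MB-231, NOB1 was at -0.00731 with no filter and between -0.0296 and 0.0584 with 1 library left out. For 4T1, Bysl was at 0.0691 and Mycl at 0.0183 on library totals, and leaving out a library gave -0.101 to 0.0157 for Bysl, -0.0554 to 0.166 for Wdr74, -0.0582 to 0.0701 for Rrp9 and -0.231 to 0.101 for Mycl. The difference between the lines turned for GAR1 (-0.0183 with DESeq2, -0.0252 with TMM over all libraries together, and -0.0317 to 0.0906 with 1 library left out), for NOP10 (0.00137 on library totals, and -0.111 to 0.0933 with 1 left out), and with 1 left out for RRN3 (-0.0495 to 0.176), FBL (-0.164 to 0.048) and NPM1 (-0.137 to 0.0208). The cause was not tested. The share of genes with an E-box in a window, 43.2%, became 67.6% when CACGCG was also accepted, against 31.4% of the genes tested in MDA-MB-231. Depth limits PPAN and MYCL in MDA-MB-231, and Mycn and Mxd3 in 4T1.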

Other observations

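Genes that serve the ribosome outside the lists above are read against all genes tested, of which, for MDA-MB-231, 26.8% fell and 27.2% rose, and, for 4T1, 29.4% fell and 29.5% rose. Of the 11 subunits specific to RNA polymerase III, which makes the smallest ribosomal RNA and the transfer RNAs, 10 fell and 1 rose in MDA-MB-231, with a median log2 fold change of -0.61, against 3 falls and 4 rises in 4T1, shares near those of all genes. POLR3G fell in both lines, in MDA-MB-231 from 64.7 ± 4.75 to 23.2 ± 3.56 CPM and in 4T1 from 27.1 ± 2.37 to 13.0 ± 1.80 CPM (SD, n = 3 each). POLR3GL, which takes its place in the other form of the enzyme, rose in both lines, by 0.73 on the log2 scale in MDA-MB-231 and by 0.47 in 4T1. POLR3K had calls in opposite directions, -1.17 in MDA-MB-231 and 0.45 in 4T1. Over all 23 listed subunits of RNA polymerases II and III, 15 fell and 2 rose in MDA-MB-231, while 4T1 had 5 lower and 5 higher (21.7% each), which became 3 lower and 7 higher on library totals without a composition factor.

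Noncoding host genes, whose introns carry snoRNAs, were lower for 7 of 12 and higher for 0 in MDA-MB-231 (1 higher at an unadjusted p under 0.05, 0 by DESeq2, 2 on library totals without a composition factor and 3 with the replicate block), and lower for 4 of 10 (40%) in 4T1. SNHG15, SNHG1 and SNHG17 had the largest falls in both lines, with log2 fold changes of -1.36, -1.18 and -0.94 in the human line and -0.73, -0.48 and -0.39 in the mouse line. Of 20 MYC targets outside the nucleolus, 15 fell and 3 rose in MDA-MB-231, against 13 and 1 in 4T1. ODC1, the first enzyme of polyamine synthesis, fell from 290 ± 4.77 to 108 ± 2.6 CPM in the human line and from 1440 ± 25.3 to 427 ± 5.71 CPM in the mouse line (SD, n = 3 each). SRM, the spermidine synthase, fell by 1.44 on the log2 scale in MDA-MB-231, and PPAT, of purine synthesis, by 1.18 there and by 0.76 in 4T1. SLC7A5, SHMT2 and SLC3A2 rose in MDA-MB-231, by 0.44, 0.36 and 0.28, and Tfrc rose in 4T1 by 0.47.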
